A study of Mus musculus with 8 samples.

Results

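The imprinted growth genes H19, Igf2, Dlk1, Meg3, Cdkn1c, Plagl1, Mest, Peg3, Grb10 and Igf2r were followed through mouse liver development. They were taken by gene symbol as known imprinted regulators of growth, and make up 10 of the 22059 genes in the count tables. The rule uses no measured value, but the set was chosen with earlier results of these data known, so the number of its genes that fell is a description. All 10 had reads in every sample and passed the filter on low counts. The samples were whole livers of wild-type FVB/NJ mice, an inbred strain, at embryonic day 18 (E18), postnatal day 14 (P14), postnatal day 28 (P28) and in adults of 3 months, with 2 biological duplicates per stage and no treatment or mutation in any group. RNA was poly(A)-selected and sequenced as 100 bp read pairs. The labels do not give sex or litter, or whether a sample came from a single liver, so p-values measure the spread between these samples. In an inbred strain the maternal and paternal copies cannot be told apart, and the values below are the sum of both.

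Imprinted genes are read mostly from the copy inherited from a given parent. In mouse, Igf2, Dlk1, Plagl1, Mest and Peg3 are read from the paternal copy, and H19, Meg3, Cdkn1c and Igf2r from the maternal copy, as is Grb10 in most tissues. Many of the paternally read genes favour growth of the fetus and many of the maternally read genes restrain it. Several are abundant in fetal liver and known to be shut down after birth as the animal stops its fast early growth.

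The reads on genes numbered 68154675 to 106055723 per sample. Levels are given as reads per 1000000 reads after TMM scaling (CPM), which puts the samples on a shared scale by assuming that most genes do not change, and RPKM, the deposited value per kilobase of transcript, is used wherever 1 gene is set against another. Calls required a change over 3-fold and a false discovery rate under 0.1 in edgeR's quasi-likelihood test. The labelled tissue was checked against 8 hepatocyte markers, none of which was at 0, and their summed CPM was 42500 to 43200 at E18 and 77900 to 210000 at the later stages. At E18 this sum was mostly Alb (38310 and 38400 CPM), whereas Tat, G6pc and Pck1 lay at only 0.139 to 0.662 CPM. Markers of blood-forming cells moved with stage, since 9 erythroid markers summed to 9930 to 12900 CPM at E18, 440 to 463 in the P14 samples, 112 to 132 at P28 and 96.2 to 106 in adult. At P14 most of this sum was Tfrc (377.0 and 363.8 CPM), which stood at 29.2 and 47.6 CPM at P28. From P14 to P28, 4 of the 9 were called lower and 5 were not called, and mean Alas2 went from 32.0 to 52.5 CPM. In whole tissue, fewer cells of a type and less RNA per cell cannot be told apart. The duplicates of E18 and of P14 also differed in sex-linked RNA. Xist, the RNA of the inactive X chromosome, had 107378 and 10229 reads at E18 and 50 and 50828 at P14, against 43 to 78 in the P28 and adult samples, and the Y-linked Ddx3y had 0 and 3421 reads at E18, 4966 and 513 at P14 and 3178 to 4378 later. Replicate 2 of E18 and replicate 2 of P14 thus each held both Xist reads far above the later samples and Y-linked reads. The source of this mixture was not tested.

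From E18 to adult, all 10 genes fell. Over all 17081 genes tested, 23.8% were called lower and 16.8% higher in the same comparison, that is 4061 and 2863 genes. With library size alone, which moved the median gene by -0.85 on the log2 scale, 6159 genes were called lower and 1653 higher, and the 10 genes were still called lower. Their median log2 fold change was -6.47, against -0.11 for all genes tested. The decreases ran from 3.66-fold for Igf2r to 16500-fold for H19 and further for Dlk1, which ended at a single read in each adult sample. Together the 10 genes held 2.63% and 2.51% of the reads on genes in the E18 samples, 0.839% and 1.87% in the P14 samples, 0.0127% and 0.0107% at P28, and 0.00961% and 0.0109% in adult. The genes differed in when they fell.

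**Figure D1:**
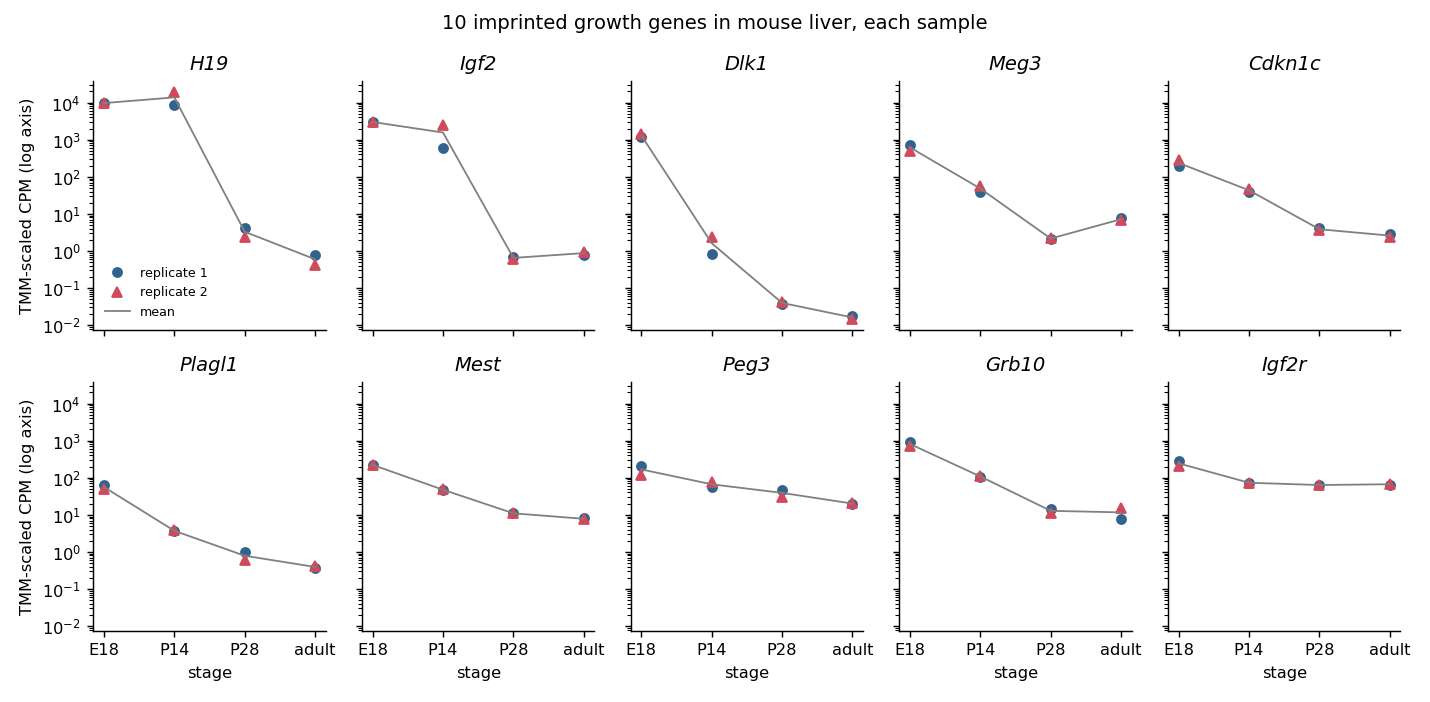
CPM after TMM scaling (log axis) of each of the 10 genes against stage, with circles for replicate 1, triangles for replicate 2 and a line through the mean of both. H19 was at 8757 and 18960 CPM at P14 and at 4.20 and 2.41 CPM at P28, whereas each of the other genes had its highest values in the E18 samples, and in adult Igf2r and Peg3 kept 27.3% and 12.0% of their mean E18 level.

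H19 and Igf2 lie next to each other on chromosome 7. H19 (chr7:142575529-142578143, minus strand, GRCm38) is a long non-coding RNA, and Igf2 (chr7:142650766-142666816, minus strand), 72.6 kb away, encodes insulin-like growth factor 2, the main growth factor of the fetus. The pair shares enhancers, and an insulator that works on the maternal copy keeps those enhancers from Igf2. Both host microRNAs, which are shown because their hosts carried the largest changes of the set from P14 to P28. Capitals mark the seed, bases 2 to 8, which pairs with target RNAs. The mature sequences are from RefSeq (GRCm38.p6), the arms of miR-675 lie in an exon of H19 (chr7:142577112-142577133 and chr7:142577078-142577099, minus strand) and those of miR-483 in an intron of Igf2 (chr7:142654968-142654989 and chr7:142654932-142654952, minus strand).
mmu-miR-675-5p: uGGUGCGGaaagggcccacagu
mmu-miR-675-3p: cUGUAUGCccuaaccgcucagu
mmu-miR-483-5p: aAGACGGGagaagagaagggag
mmu-miR-483-3p: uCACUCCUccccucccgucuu
No pair of these 4 shares a seed. Rows of the count tables named for the microRNA genes held 151580 and 123729 reads (Mir675) and 14026 and 8303 reads (Mir483) at E18, and 3 and 1 (Mir675) and 0 (Mir483) in adult. Poly(A) selection takes long RNAs, so these are reads over the microRNA genes and not levels of the mature microRNAs.

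H19 was 9747 and 9716 CPM at E18, 8757 and 18960 in the P14 samples, 4.20 and 2.41 at P28, and 0.774 and 0.422 in adult. The E18 values lay between the P14 values, and the P28 and adult samples were far below those of both earlier stages. In reads, H19 went from 802811 and 1689954 at P14 to 336 and 172 at P28. By RPKM it held place 7 among all genes at E18, place 11 at P14, place 10832 at P28 and place 13352 in adult. From E18 to P14 its log2 fold change was 0.51 (SE 0.35, adjusted p = 0.22), which did not pass the test. The sign of that value was not settled, since it was -0.45 with limma on log2(RPKM + 0.1), -0.36 with library size alone and -0.14 without replicate 2 of P14. From P14 to P28 H19 fell by 12.03 on the log2 scale (SE 0.56, adjusted p = 1.6e-06), a 4180-fold decrease, and from P28 to adult it fell by a further 2.49 (SE 0.49, adjusted p = 0.011).

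Igf2 was 2977 and 3037 CPM at E18, 582.3 and 2541 in the P14 samples, 0.700 and 0.602 at P28, and 0.791 and 0.964 in adult. The P14 samples were both below the E18 samples but 4.36-fold apart. The change from E18 to P14 was -0.94 (SE 0.5, adjusted p = 0.12) on the log2 scale and was not called. It was called with limma (-2.16), with library size alone (-1.82) and without replicate 2 of P14 (-2.35). From P14 to P28 Igf2 fell by 11.22 (SE 0.8, adjusted p = 1.4e-05), or 2390-fold, and from P28 to adult the difference of 0.43 (SE 0.76, adjusted p = 0.76) did not pass the test. In the main fit the interval from P14 to P28 thus held 85.9% of the log2 decrease of H19 between E18 and adult. For Igf2 the share was 95.6%. These shares depend on replicate 2 of P14, without which the change from P14 to P28 was -11.37 for H19 and -9.80 for Igf2.

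The change from P14 to P28 minus the change from E18 to P14 was tested in the same fit, a contrast chosen after the levels had been seen. It was -12.54 (SE 0.66, adjusted p = 1.3e-06) for H19 and -10.28 (SE 0.94, adjusted p = 2.7e-05) for Igf2, and 15.1% of all genes were called lower and 10.5% higher in this contrast. Without replicate 2 of P14 the values were -11.23 and -7.45, both still called. For Plagl1 the contrast was 1.70 (SE 0.33, adjusted p = 0.0026), so that its decrease was larger in the first interval. This call was lost without replicate 1 of E18 (1.54) or replicate 1 of P28 (1.25). Dlk1 gave 4.35 (SE 1.68, adjusted p = 0.057), a call that was lost without replicate 2 of E18, or replicate 1 or 2 of P28. Igf2r (1.54, SE 0.23, adjusted p = 0.00055) was under 3-fold, and over it with median-ratio scaling (1.62), library size alone (2.40) and without replicate 2 of E18 (1.72). The other 5 genes did not pass both thresholds in this contrast.

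The duplicates of P14 differed for H19, Igf2 and Dlk1 more than for nearly all other genes. Over 13705 genes with at least 100 reads in the P14 samples together, the median fold between them was 1.08. It was 2.16 for H19, which 0.73% of genes exceeded, 4.36 for Igf2, which 0.219% exceeded, and 2.75 for Dlk1, which 0.387% exceeded, each higher in replicate 2. Meg3 was 1.53-fold higher in replicate 2, whereas Plagl1, Mest, Grb10 and Igf2r differed by 1.00- to 1.05-fold. Replicate 2 of P14 also held more reads of smooth muscle genes (Myh11 with 1459 against 237 reads, Actg2 with 476 against 56), skeletal muscle genes (Acta1 with 260 against 1) and Dmbt1, a gene of mucosal and ductal epithelia (5645 against 0), and it was the P14 sample with Xist. These genes were looked at after the levels had been seen, and their part in the difference between the duplicates was not tested.

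**Figure D2:**
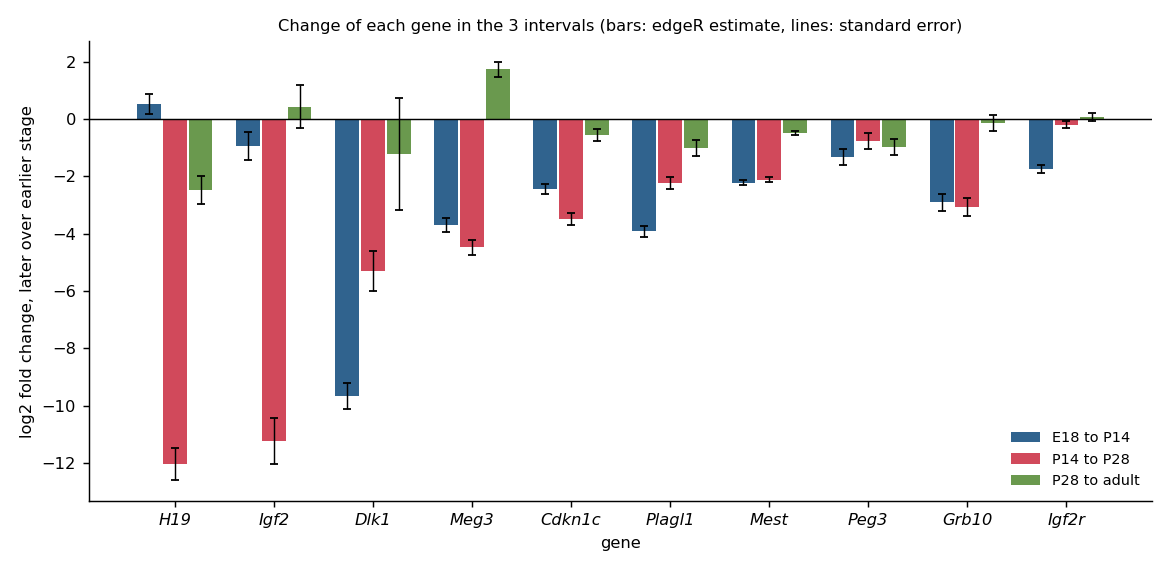
Log2 fold change (later over earlier stage) of each gene in the 3 intervals, with lines for the standard error of the edgeR estimate. The bars of H19 and Igf2 are longest from P14 to P28 (-12.03 and -11.22), that of Dlk1 from E18 to P14 (-9.65), and Meg3 has the only called increase, 1.73 from P28 to adult.

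Igf2r and Grb10 act on the receiving side of growth factor signals. Igf2r (chr17:12682406-12769664, minus strand) encodes the receptor that carries Igf2 to the lysosome for breakdown, and Grb10 (chr11:11930508-12038683, minus strand) an adaptor protein that dampens signals of the insulin and IGF1 receptors. Igf2r was 279.3 and 208.5 CPM at E18, 73.1 and 73.3 in the P14 samples, 64.7 and 62.6 at P28, and 65.3 and 68.1 in adult. It stepped down once and then stayed within a narrow range. From E18 to P14 it fell by 1.74 on the log2 scale (SE 0.13, adjusted p = 2.8e-06), and its 3-fold call was lost without replicate 1 of E18 (-1.51). From P14 to P28 the difference was -0.20 (SE 0.13, adjusted p = 0.23) and from P28 to adult 0.07 (SE 0.13, adjusted p = 0.78).

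Grb10 was 891.6 and 729.4 CPM at E18, 107.5 and 108.4 in the P14 samples, 14.7 and 10.9 at P28, and 7.68 and 15.6 in adult. It fell by 2.91 (SE 0.29, adjusted p = 1.8e-05) to P14 and by 3.07 (SE 0.3, adjusted p = 7.3e-05) to P28 on the log2 scale. The adult samples were 2.02-fold apart, a fold that 0.502% of genes exceeded between these duplicates, and they lay on both sides of the P28 samples. The log2 difference from P28 to adult was accordingly -0.14 (SE 0.28, adjusted p = 0.80), and it was 0.28 without replicate 1 of adult and 0.09 without replicate 1 of P28.

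Set beside each other per length, Igf2 and Igf2r changed order. By RPKM, Igf2 exceeded Igf2r 22.5- and 30.7-fold in the E18 samples and 16.8- and 73.1-fold at P14, whereas the ratio was 0.0228 and 0.0203 at P28 and 0.0255 and 0.0298 in adult. Igf1, the growth factor that the liver makes under growth hormone after birth, moved the other way. Its RPKM was 2.35 and 2.34 at E18, 75.1 and 78.8 in the P14 samples, 177.9 and 155.2 at P28, and 104.0 and 137.2 in adult. On the TMM scale of the edgeR test, which RPKM does not use, Igf1 rose by 5.89 in log2 (SE 0.17, adjusted p = 1.3e-08) from E18 to P14. At E18 the RPKM of Igf2 was 443 and 444 times that of Igf1, at P14 1.49 and 6.12 times, at P28 0.000726 and 0.000729 times, and in adult 0.00141 and 0.00135 times. At P14 both ligands were therefore present, with Igf2 still the higher in each sample. Igf1r, the signalling receptor of both ligands, stood at 4.17 and 3.37 RPKM at E18 and 0.206 and 0.161 in adult. On the TMM scale it fell by 3.48 in log2 (SE 0.19, edgeR adjusted p = 1.7e-07) from E18 to adult. Igf1r stayed below Igf2r in RPKM in all 8 samples, at a ratio of 0.0899 and 0.0995 at E18 and 0.0357 and 0.0261 in adult. These ratios within a sample are descriptions and were not tested.

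**Figure D3:**
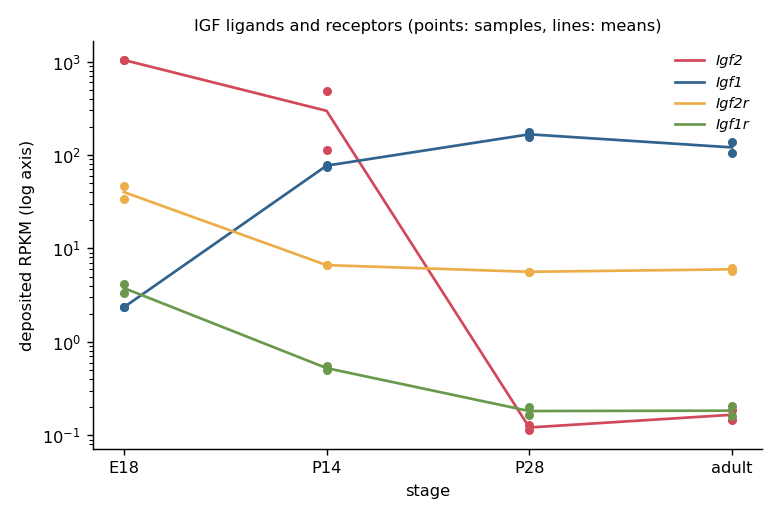
Deposited RPKM (log axis) of Igf2, Igf1, Igf2r and Igf1r against stage, with a point for each sample and lines through the means. Igf2 lies above Igf1 in the E18 and P14 samples and below it in the P28 and adult samples, and Igf2r lies above Igf1r in every sample.

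Among 24 other genes of the IGF system (ligands, receptors, their adaptors, binding proteins, proteases that cut these, and mRNA-binding proteins), 7 rose and 11 fell from E18 to adult, where 16.8% of all genes rose and 23.8% fell. From E18 to P14, 8 rose and 6 fell, and 13.8% of all genes rose and 15.4% fell in that interval. The largest increases from E18 to adult were those of Igf1 (log2 6.56, SE 0.18), of Igfals (5.30, SE 0.18), which holds IGFs in a stable complex in plasma, and of the binding protein Igfbp2 (4.01, SE 0.52), followed by Grb14 (3.23, SE 0.12), a relative of Grb10. The size for Igfbp2 rests on E18 duplicates of 30.18 and 8.25 CPM, and it was 5.23 without replicate 1 and 3.37 without replicate 2 of E18. Igf2bp1, which binds Igf2 mRNA, fell by 9.33 (SE 0.3), with 5580 and 4162 reads at E18 and 4 and 3 in adult. Igfbp1 fell by 5.59 (SE 0.71) from E18 duplicates of 460.0 and 92.27 CPM, and by 4.01 without replicate 1 and 6.32 without replicate 2 of E18. The insulin gene Ins2, 11.8 kb from Igf2, went from 355 and 929 reads at E18 to 21 and 59 at P14 and 0 in the P28 and adult samples. In edgeR with all samples the adjusted p of these values lay at or below 0.00025. The 11 pancreatic acinar markers summed to 260 to 552 CPM at E18, 35.9 to 36.2 at P14, 121 to 124 at P28 and 109 to 123 in adult. Of the 10 tested, 8 fell from E18 to adult, Cela1 rose (mean CPM 11.9 to 111.6) and 1 was not called. The part of pancreas RNA in the insulin reads was not tested.

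Dlk1 and Meg3 lie 77.7 kb apart on chromosome 12. Dlk1 (chr12:109452823-109463336, plus strand) encodes a membrane protein related to the Notch ligands and known as a marker of hepatoblasts, and Meg3 (chr12:109541001-109571726, plus strand) a long non-coding RNA read from the other parental copy. Dlk1 was 1177 and 1422 CPM at E18, 0.840 and 2.40 in the P14 samples, 0.0375 and 0.0420 at P28, and 0.0172 and 0.0151 in adult. Its reads numbered 163350 and 173999 at E18, 77 and 214 in the P14 samples, 3 in each P28 sample and 1 in each adult sample. It fell by 9.65 on the log2 scale (SE 0.45, adjusted p = 1.3e-07), or 803-fold, to P14 and fell by a further 5.30 (SE 0.71, adjusted p = 0.00042) to P28. With so few late reads the fitted size depends on the small count that the model adds, so the ratio of scaled reads is the better guide. It was 32600 for E18 over P28 (95% counting interval 15000 to 88900) and 80500 for E18 over adult (22300 to 664000), intervals that cover counting error only. Of 7 hepatoblast and bile duct markers 3 fell, Spp1 rose (log2 2.57, SE 0.13, adjusted p = 2.4e-07) and 3 were not called from E18 to P14. Their sum, 28100 to 35900 CPM at E18 and 241 to 341 at P14, was nearly all Afp at E18 (35370 and 27510 CPM). The part of cell composition in the decrease of Dlk1 was not tested.

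Meg3 was 729.3 and 509.9 CPM at E18, 38.1 and 58.2 in the P14 samples, 2.06 and 2.27 at P28, and 7.65 and 6.75 in adult. It was lowest at P28 and then higher again in both adult samples. On the log2 scale it fell by 3.69 (SE 0.24, adjusted p = 9e-07) to P14 and fell by 4.47 (SE 0.26, adjusted p = 4.9e-06) to P28. From P28 to adult Meg3 rose by 1.73 (SE 0.25, adjusted p = 0.0027), with 165 and 162 reads at P28 and 445 and 448 in adult, and 0.767% of all genes were called higher in this interval. With limma on log2(RPKM + 0.1) the rise was 1.23 and no longer over 3-fold. Adult Meg3 stood at 1.16% of its mean E18 level.

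The other non-coding RNAs of this cluster had a course like that of Meg3. Rian, 32.2 kb from Meg3, had 30633 and 22291 reads at E18, 689 and 989 in the P14 samples, 20 and 42 at P28, and 107 and 121 in adult. It rose from P28 to adult by 2.15 (SE 0.35, adjusted p = 0.0052), and Mirg, the next RNA, by 1.92 (SE 0.62, adjusted p = 0.075), a call that rests on 3 and 2 reads at P28 and 10 and 6 in adult. With limma neither was called (1.43 for Rian and 0.58 for Mirg). Without replicate 2 of P28 the rise of Rian was 2.86, and Mirg was not called without either P28 sample or replicate 1 of adult. Per length, Meg3 and Rian stayed close, with Meg3 at 0.776 to 2.29 times the RPKM of Rian in all 8 samples. The protein-coding Rtl1 of the paternal copy followed Dlk1 in the first interval (log2 -7.08, SE 0.36, adjusted p = 6.8e-07), with 1029 and 971 reads at E18 and 3 and 7 at P14, and was at -7.80 without replicate 2 of P14. Dio3, which inactivates thyroid hormone, was not lower at P14 (log2 1.04, SE 0.27, adjusted p = 0.0067, under 3-fold) and fell from P14 to P28 by 3.36 (SE 0.34, adjusted p = 9.7e-05). The RPKM ratio of Dlk1 to Meg3 was 4.33 and 7.48 at E18, 0.0592 and 0.111 in the P14 samples, 0.0488 and 0.0497 at P28, and 0.00603 and 0.00599 in adult.

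**Figure D4:**
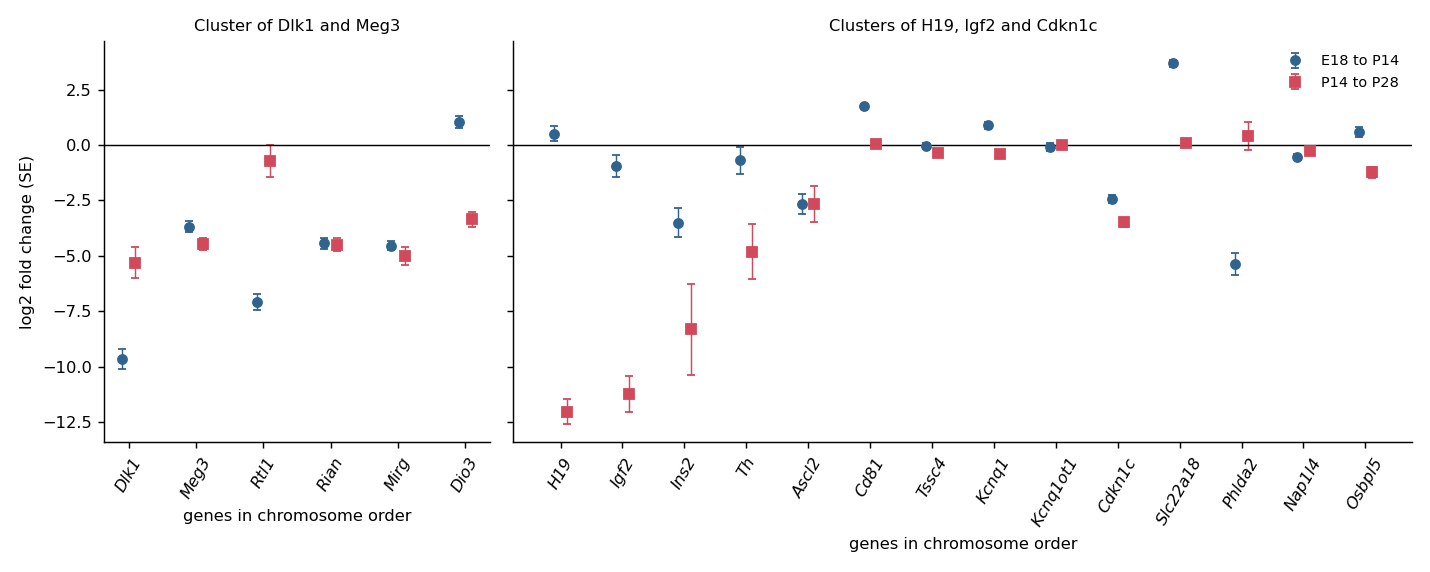
Log2 fold change with standard error from E18 to P14 (circles) and from P14 to P28 (squares) for genes of the Dlk1 and Meg3 cluster on chromosome 12 and of the H19, Igf2 and Cdkn1c clusters on chromosome 7, in chromosome order. H19 and Igf2 lie near 0 in the first interval and at -12.03 and -11.22 in the second, and of the genes between Igf2 and Cdkn1c, Ins2 (-3.51 and -8.32) and Ascl2 (-2.68 and -2.66) lie low in both intervals and Th (-4.81) in the second, Cd81 lies at 1.74 and 0.04, and Tssc4, Kcnq1 and Kcnq1ot1 stay within 0.88 of 0.

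Cdkn1c (chr7:143458339-143461050, minus strand), which encodes the cyclin-dependent kinase inhibitor p57, lies 792 kb from Igf2 in a neighbouring imprinted cluster. It was 192.6 and 280.1 CPM at E18, 38.7 and 47.9 in the P14 samples, 4.05 and 3.67 at P28, and 2.80 and 2.40 in adult. It fell by 2.45 (SE 0.18, adjusted p = 2.5e-06) to P14 and by 3.49 (SE 0.2, adjusted p = 4.8e-06) to P28 on the log2 scale, and the difference of -0.57 (SE 0.21, adjusted p = 0.11) from P28 to adult was not called. Cdk1, a kinase that drives mitosis, fell over the same stages (log2 -7.01 from E18 to adult, SE 0.2, adjusted p = 5.9e-09). The RPKM ratio of Cdkn1c to Cdk1 was 1.95 and 2.12 at E18, 0.699 and 0.760 at P28, and 2.93 and 2.86 in adult.

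The genes around Igf2 and Cdkn1c did not move together. Phlda2, a placental growth restrictor near Cdkn1c, had 689 and 976 reads at E18 and 6 and 22 at P14 and fell by 5.37 (SE 0.48, adjusted p = 8.5e-06), and the transcription factor gene Ascl2 fell by 2.68 (SE 0.45, adjusted p = 0.00054) from 159 and 70 reads. The value of Phlda2 was -4.69 without replicate 1 and -6.58 without replicate 2 of P14, and that of Ascl2 was -2.09 without replicate 1 of E18. Slc22a18, an organic cation transporter gene, rose by 3.69 (SE 0.16, adjusted p = 1e-07), and the tetraspanin gene Cd81 rose by 1.74 (SE 0.1, adjusted p = 4.4e-07), a call that was lost with library size alone (0.87) and limma (0.88). Th was at 53 and 41 reads at E18 and 0 or 1 in the P28 and adult samples. Tssc4 (log2 -0.35), Kcnq1 (-0.08), the long non-coding Kcnq1ot1 (-0.31), Nap1l4 (-0.60) and Osbpl5 (-0.35) were not called from E18 to adult.

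Plagl1, Mest and Peg3 complete the set. Plagl1 (chr10:13060504-13131694, plus strand) encodes a zinc finger transcription factor that is known to bind at other imprinted genes. It was 61.7 and 50.4 CPM at E18, 3.63 and 3.78 in the P14 samples, 0.988 and 0.588 at P28, and 0.378 and 0.407 in adult. It fell by 3.92 (SE 0.19, adjusted p = 1.5e-07) to P14 on the log2 scale and fell by 2.22 (SE 0.21, adjusted p = 6.6e-05) to P28. Its relatives fell too from E18 to adult, Plag1 by 4.85 (SE 0.32, adjusted p = 6.9e-07) and Plagl2 by 3.75 (SE 0.11, adjusted p = 5.5e-09) on the log2 scale.

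Mest (chr6:30723547-30748465, plus strand), which encodes an enzyme-like protein of the endoplasmic reticulum, differed little between duplicates, by 1.01- to 1.06-fold at every stage. It was 222.4 and 220.8 CPM at E18, 46.3 and 48.6 in the P14 samples, 11.1 and 10.9 at P28, and 8.04 and 7.58 in adult. Its steps of -2.22 (SE 0.08, adjusted p = 3.6e-08) and -2.11 (SE 0.08, adjusted p = 7e-07) in the first intervals differed by 0.11 (SE 0.14, adjusted p = 0.53), which did not pass the test. With library size alone the first step was -3.09 and the difference 0.97 (adjusted p = 0.00036, under 3-fold), and with limma the first step was -3.07. The last step of -0.49 (SE 0.08, adjusted p = 0.0063) passed the false discovery rate but not 3-fold. An intron of Mest holds miR-335 (chr6:30741314-30741336 and chr6:30741354-30741375, plus strand, RefSeq GRCm38.p6), printed to show that its seeds, in capitals, differ from those of miR-675 and miR-483.
mmu-miR-335-5p: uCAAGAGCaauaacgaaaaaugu
mmu-miR-335-3p: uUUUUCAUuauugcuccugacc
The tail of Mest overlaps the opposite-strand Copg2 by 912 bases. Copg2 was at a log2 fold change of 0.39 (SE 0.09, adjusted p = 0.0032, under 3-fold) from E18 to adult, and Klf14, farther along, had 82 and 67 reads at E18 and 0 in the P28 and adult samples.

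Peg3 (chr7:6703892-6730431, minus strand) encodes a large zinc finger protein. It was 213.2 and 121.9 CPM at E18, 57.6 and 75.4 in the P14 samples, 47.1 and 31.0 at P28, and 19.2 and 21.01 in adult. No single interval passed both thresholds. The log2 differences were -1.33 (SE 0.27, adjusted p = 0.0017), -0.77 (SE 0.27, adjusted p = 0.045) and -0.96 (SE 0.28, adjusted p = 0.05), and from E18 to adult Peg3 fell by 3.06 (SE 0.29, adjusted p = 9.3e-06). The first passed 3-fold with limma (-2.13), with library size alone (-2.21) and without replicate 2 of E18 (-1.67). Zim1 beside Peg3 went from 1826 and 788 reads at E18 to 7 and 25 at P14 and 0 to 2 later, and Usp29, which starts 146 bases from Peg3 on the opposite strand, from 134 and 90 reads to 8 and 10 at P14 and 0 or 1 later.

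The promoters of the set were searched for 3 short motifs, since several members moved together. RefSeq (GRCm38.p6) gave 15 windows of 250 bases before to 50 after a start for 8 of the 10 genes, with no entry for H19 and Cdkn1c. The motifs, on both strands, were TGACGTCA, the cAMP response element, GGGGCCCC, a sequence like the one Plagl1 is known to bind, and TATAAA. They occur in 1.79%, 1.08% and 13.6% of all 32851 windows. The first was found at Meg3 and Peg3, the second at Peg3 alone and the third, counting these 15 windows, at Meg3. A match is a description of the letters and not a binding site. Part of each promoter is shown with the motifs in capitals, for Meg3 the 200 bases before the start (chr12:109540796-109540995, plus strand) and for Peg3 bases 220 to 21 before it (chr7:6730440-6730639, minus strand). In Meg3 the TATA motif overlaps its own reverse complement.
Meg3: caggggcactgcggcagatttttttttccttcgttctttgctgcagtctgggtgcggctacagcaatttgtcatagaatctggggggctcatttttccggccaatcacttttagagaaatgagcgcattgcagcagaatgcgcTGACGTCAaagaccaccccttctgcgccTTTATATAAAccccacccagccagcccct
Peg3: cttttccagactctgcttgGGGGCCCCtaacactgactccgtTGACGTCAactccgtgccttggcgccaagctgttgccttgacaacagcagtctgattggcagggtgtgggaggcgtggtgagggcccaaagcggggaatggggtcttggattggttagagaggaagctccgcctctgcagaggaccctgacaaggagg
The number of CpG dinucleotides per window ran from 1, at a second Meg3 start, to 45, at a Grb10 start, against a median of 7 over all windows. The single Igf2r window held 34.

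Counted by interval, 7 of the 10 genes fell from E18 to P14, and 15.4% of all genes were called lower, 2636 against 2353 higher (5095 against 1266 with library size alone). The exceptions were H19, Igf2 and Peg3. From P14 to P28, 8 of 10 fell, all but Peg3 and Igf2r, where 5.98% of all genes fell and 3.61% rose. From P28 to adult H19 fell, Meg3 rose and 8 were not called, where 2.24% of all genes fell. The median log2 fold changes of the 10 genes were -2.34, -3.28 and -0.53 in the 3 intervals, against -0.03, -0.05 and 0.00 over all genes.

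The order of the levels turned over as well. By mean RPKM the order at E18 was H19 (5453), Igf2 (1040), Dlk1 (395.3), Grb10 (230.5), Cdkn1c (177.9), Mest (116.9), Meg3 (70.5), Igf2r (40.1), Peg3 (37.2) and Plagl1 (15.6). Grb10 and Cdkn1c overlapped in their samples, as did Igf2r and Peg3. In adult it was Igf2r (5.98), Peg3 (2.43), Mest (2.25), Grb10 (1.81), Cdkn1c (1.07), Meg3 (0.446), H19 (0.182), Igf2 (0.166), Plagl1 (0.0597) and Dlk1 (0.00268), where Mest overlapped Grb10 and H19 overlapped Igf2. Igf2r, in the eighth place at E18, was thus the first at P28 and in adult.

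The genes with the most similar course over the 8 samples were found by the mean absolute difference of log2(CPM + 0.5) after each gene's own mean was taken off, among 17081 genes. H19 and Igf2 were each other's nearest separate gene, at 1.03, since the only nearer entry was Mir675, which lies inside H19. The genes near Dlk1 included Slc4a1 (0.38) and Ermap (0.47), both known from red cell membranes, and Meg3, the nearest of the set, came in place 71 at 1.82. For Meg3 they were Rian (0.25), Mir770, which lies inside Meg3 (0.38), and the metallothionein gene Mt2 (0.41). Plagl1 was nearest to Myb (0.11), Pf4 (0.19) and Cox6b2 (0.19), of which Myb is known from blood progenitors and Pf4 from platelets.

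Cdkn1c was nearest to Ngfrap1 (0.22), Slc39a5 (0.23) and Krt20 (0.24), and Grb10 to A630012P03Rik (0.24), Thbs1 (0.25) and Igdcc4 (0.26), while Cdkn1c and Grb10 differed from each other by 0.37. Mest was nearest to Mthfd1l (0.14), Tceal5 (0.15) and Slc41a3 (0.15), and Peg3 to Enah (0.15), Sh3bp1 (0.16) and Itpr3 (0.16). The nearest to Igf2r, Dgkk (0.03), Scin (0.06) and Mir409 (0.07), were at 1.33 to 1.61 CPM at E18 and near 0 later, so the added 0.5 sets the size of their step. Other near genes also ended below 0.5 CPM, so their decrease is shortened in this measure. Among them, mean CPM at E18 and P28 was 23.2 and 0.0125 for Krt20, 48.4 and 0.168 for A630012P03Rik, and 13.5 and 0.132 for Tceal5. These distances are descriptions over samples that share a library each.

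Among 52 other genes listed as imprinted that were tested, 23 fell, 8 rose and 21 were not called from E18 to adult, with a median log2 fold change of -0.48 (25 fell and 4 rose with library size alone), where 23.8% of all genes fell and 16.8% rose. These 52 include 3 genes listed as biallelic or mixed, of which 2 rose and 1 was not called. They also include Snrpn and Snurf, whose rows hold the same reads. Whether the listed genes are imprinted in these livers was not measured. Of the 23 neighbours of the 10 genes within their clusters, which are part of these 52, 12 fell, 3 rose and 8 were not called. Near Grb10, Ddc, an enzyme of amine synthesis, rose by 2.98 (SE 0.23, adjusted p = 2.3e-06) from E18 to adult. Near Igf2r, the antisense RNA Airn fell by 2.53 (SE 0.32, adjusted p = 6.7e-05), with 560 and 264 reads at E18 and 30 and 37 in adult, and the transporter genes Slc22a2 (log2 0.94, adjusted p = 0.18) and Slc22a3 (1.28, adjusted p = 0.00025, under 3-fold) were not called. Airn overlaps Igf2r by 28.4 kb on the opposite strand, and since the use of strand in counting is not stated, reads of the overlap could be counted for either gene.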

How the data were processed

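Poly(A)-selected RNA of 8 samples of whole mouse liver, 2 at each of 4 stages, had been sequenced as 100 bp read pairs. RNA was isolated with Trizol per the labels, but with an RNeasy kit per the study's methods. The authors aligned reads to the mouse genome and transcriptome (build mm9 in the submitters' processing notes, aligner not given in the sources used here) and deposited, per gene symbol, the raw read count and the RPKM, a value per transcript kilobase and per 1000000 reads mapped. Samples were grouped by stage from their titles. Use of strand in counting is not stated.

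Counts were filtered with filterByExpr and scaled by TMM in edgeR (version 4.0.16), which left 17081 genes, and all 8 samples entered a model with 1 term per stage (glmQLFit, glmQLFTest). Calls required a Benjamini-Hochberg false discovery rate below 0.1 over all genes tested and a change over 3-fold. SE is the log2 fold change over the root of F. CPM are on the TMM scale. Depth was 68154675 to 106055723 reads on genes, so that 3 reads is the smallest level taken as shown. Simulated counts used each gene's mean over all 8 samples, the same spread for every gene (dispersion 0.0159), and 200 of 17081 genes changed in adult. In these, edgeR recovered 97.5%, DESeq2 97.5% and limma 96.5% of the changed genes, with 1, 0 and 0 false calls. In the data far more genes were called and the TMM factors differed between stages. The simulation therefore checks the code and cannot vouch for the calls or the scaling. Alternatives used DESeq2 (version 1.42.0), limma (version 3.58.1) on log2(RPKM + 0.1), other filters and scalings, the replicate number as a block, only the stages compared, other thresholds and each sample left out. Positions came from GENCODE M21 (GRCm38), and promoters and microRNAs from RefSeq (GRCm38.p6), matched by symbol, which differ in build from the files.

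The 10 genes, the gene lists and the markers were chosen with earlier results of these data known. Named were the 10 genes, the listed neighbours of each in its imprinted cluster, from other lists at most 4 genes a direction with the largest called change from E18 to adult, Igf1, Igf1r, Afp, Gpc3, Zhx2 and Zbtb20, and the 3 nearest patterns of each gene, of which not all are reported here. Igfbp1 and the sex-linked, muscle and epithelial genes compared between duplicates were named outside this rule. Splicing was not analysed here. R 4.3.3, Python 3.11.15, pandas 2.3.3, numpy 2.4.6, scipy 1.17.1 and matplotlib 3.10.9 were used.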

Additional observations from a re-analysis of the deposited data

How the results depend on the processing

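From E18 to adult all 10 genes were called lower under each alternative run, except that a minimum of 10 counts per sample left out Dlk1 and gave 9. The number called was 6 to 9 from E18 to P14 (7 as reported), 7 or 8 from P14 to P28 (8) and 1 to 3 from P28 to adult (2), the 1 with limma. Of 635 log2 fold changes of the 10 genes between stages under the alternatives, 622 kept direction and call, 6 gained a call, 2 lost it and 5 reversed. The contrast between the first intervals is not part of this count, and in it calls of Plagl1 and Dlk1 were lost and Igf2r passed 3-fold under some alternatives, as given above. The reversals were those of H19 from E18 to P14 (-0.36 with library size alone, -0.45 with limma, -0.14 without replicate 2 of P14, against 0.51, with 0.97 as the highest when a sample was left out) and of Grb10 from P28 to adult (0.09 without replicate 1 of P28, 0.28 without replicate 1 of adult, against -0.14, with -0.74 as the lowest). In the contrast between the first intervals, Meg3 changed sign with library size alone (0.08 against -0.79), as did Grb10 (0.69 against -0.16), which ran from -0.41 without replicate 1 of P28 to 0.02 without replicate 2. None of the reversed values was called in the main fit, and the cause was not tested.

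Library size alone and limma on RPKM moved the median gene by -0.85 and -0.86 from E18 to adult and by -0.87 and -0.84 from E18 to P14, and by 0.03 or less in size later. With library size alone 1653 genes rose and 6159 fell from E18 to adult, against 2863 and 4061. The other imprinted genes called numbered 31, 21, 14 and 4 in the comparisons E18 to adult, E18 to P14, P14 to P28 and P28 to adult. They were 15, 8, 3 and 1 with at least 10 counts in every sample, a filter that removes genes whose reads end. From P14 to P28 limma called 6 of them and the fit of only these stages 8. From P28 to adult limma called 0 of them, the fit of only these stages 2, a false discovery rate of 0.05 also 2, and leaving out a sample gave 2 to 4, with 2 without either P28 sample.

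Same-numbered samples did not deviate together (mean r = -0.087 over 6 pairs of stages and 10419 genes, -0.293 to 0.11), so the numbers were not taken to pair them, and the replicate block changed none of the counts of members called (10, 7, 8 and 2). Depth limits Dlk1 and Igf2 after P14, and H19 and Plagl1 in adult, where 1 to 64 reads were counted. Plagl1 had 79 and 42 reads at P28. The alternatives given beside genes outside the set were chosen after seeing the data.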

Other observations

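Regulators and partners outside the set moved as follows. Of 52 other imprinted genes tested, the paternally read Peg10 fell by 9.80 on the log2 scale (SE 0.18, edgeR adjusted p = 1.2e-09) from E18 to adult, and Magel2 had 33 and 23 reads at E18 and 0 in all later samples. Slc38a4, an amino acid transporter of the paternal copy, rose by 3.48 (SE 0.15, adjusted p = 5.1e-08). Among genes listed as maternally read, Slc22a18 rose by 4.02 (SE 0.17, adjusted p = 3.7e-08), Tfpi2 by 1.99 (SE 0.11, adjusted p = 1.9e-07), H13 by 1.80 (SE 0.12, adjusted p = 9.8e-07) and Calcr by 3.54 (SE 0.36, adjusted p = 1.5e-05), the last from 9 and 7 reads to 46 and 44. The matrix gene Dcn, listed as biallelic or mixed, rose by 1.69 (SE 0.11, adjusted p = 6.4e-07). With library size alone Tfpi2 (1.14), H13 (0.95) and Dcn (0.83) were under 3-fold, and so they were with limma, as was Calcr (1.02), and Dcn also with at least 10 counts in every sample (1.55).

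Of 5 genes of the fetal repression group, Afp and Gpc3 fell and their known repressors Zhx2 and Zbtb20 rose from E18 to adult, by 2.91 (SE 0.14, adjusted p = 8.3e-08) and 4.85 (SE 0.27, adjusted p = 2.3e-07) on the log2 scale. Afp, the fetal serum protein, fell by 7.79 (SE 0.34) to P14 and by 4.33 (SE 0.3) to P28, and Gpc3, a surface proteoglycan, by 3.08 (SE 0.16) and 4.39 (SE 0.18), where H19 and Igf2 were not called in the first interval. Zhx2 stood at 2.997 and 3.13 CPM at E18 and at 15.53 and 14.45 CPM at P14. H19 was at 8757 and 18960 CPM at P14, and a link of Zhx2 to H19 was not tested. Zbtb20 rose again from P14 to P28 (1.80, SE 0.23, adjusted p = 0.00031). That rise was under 3-fold with limma (1.55) and without replicate 1 of P28 (1.58). Of 12 genes tested that maintain imprints, Uhrf1 (-9.05, SE 0.27), Dnmt1 (-4.06, SE 0.1), Zfp57 (-3.22, SE 0.22) and Smchd1 (-2.09, SE 0.09) fell and Ctcfl (5.68, SE 0.35) and Zfp445 (1.62, SE 0.23) rose from E18 to adult. Zfp445 had 180.2 and 314.4 CPM in adult, and its call was lost without replicate 2 of adult (1.17), without replicate 2 of E18 (1.54), with library size alone (0.78), with limma (0.70), with no filter on low counts (1.58) and with at least 10 counts in every sample (1.49). Of 7 cell cycle genes related to Cdkn1c, 5 fell and 0 rose, among them Cdk1 (-7.01, SE 0.2), Ccne1 (-4.98, SE 0.28), Cdkn1a (-3.47, SE 0.41) and Cdk2 (-2.45, SE 0.11). Their adjusted p from edgeR lay at or below 0.00016, and 23.8% of all genes fell in this comparison. Other marker groups were, in summed CPM at E18 and in adult, 508 to 513 and 17.6 to 17.8 for 7 other haematopoietic markers, 559 to 691 and 371 to 373 for 8 stellate and mesenchymal markers, 203 to 237 and 143 to 169 for 6 endothelial markers, 192 to 279 and 209 to 219 for 5 Kupffer cell markers, 14.0 to 16.3 and 7.11 to 7.22 for 3 mesothelial markers, 27.0 to 40.4 and 51.7 to 56.9 for 4 gut epithelium markers and 1.09 to 1.32 and 0.0904 to 0.103 for 4 skeletal muscle markers. Several sums hid opposite changes. Of the gut epithelium markers Fabp2 rose (mean CPM 4.64 to 48.8) and the other 3 fell, of the stellate and mesenchymal markers 2 rose and 3 fell, of the Kupffer cell markers 2 rose and 2 fell, and of the endothelial markers 1 rose and 1 fell.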
